A study of Mus musculus with 9 samples.

Results

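Mouse embryonic stem (ES) cells that had differentiated for 3.5 days without doxycycline (Dox-) were compared with cells that had differentiated for the same time with doxycycline at 1 µg/ml (Dox+). The comparison holds 2 of the 9 arrays of the study, 1 of each medium, chosen by their labels for day and medium. The other arrays hold undifferentiated cells, which were kept with doxycycline and leukemia inhibitory factor, and both media on D0.5, D1.5 and D2.5 (days 0.5 to 2.5). Differentiation took place in a serum medium without that factor, so cells of both arms had met doxycycline before. The study uses doxycycline to control a constitutively active protein kinase A (PKA). Its texts can be read either way on whether adding or removing the drug switched the kinase on, and they do not give the line, the promoter of the introduced gene or whether the cells are 1 clone. The arms therefore carry the name of the medium, and of paired values the Dox- one comes first. Each array is the only one of its day and medium, so no difference below carries an error or a test. A gene is called higher or lower when the D3.5 arrays differ at least 2-fold on the log2(signal + 16) scale, which means a log2 difference (Dox- minus Dox+) of at least 1 in size. That scale understates the change of dim genes. The D0.5 pair, taken soon after the media parted, serves as the noise reference. Because each array measures a whole culture, fewer cells of a type and less RNA per cell cannot be told apart.

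PKA is the kinase that cyclic AMP activates, and it phosphorylates transcription factors that bind the cyclic AMP response element in promoters. When leukemia inhibitory factor is withdrawn, ES cells leave the naive state, pass through a primed, epiblast-like state and then form germ layers. Cells that enter mesoderm pass through a state like that of the primitive streak. The streak's posterior derivatives, lateral plate and extraembryonic mesoderm, depend on BMP signals and give rise to heart, vessels, blood, amnion and allantois.

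The arrays name 18193 genes by a probe set of their own. For 8716 of them 2 or more of the 9 arrays reached a signal of 50, and these are called tested genes below. On D3.5, 360 of them were higher in Dox- (4.13%) and 418 lower (4.80%). On D0.5 the same counts were 8 (0.0918%) and 2 (0.0229%). Over all 18193 genes, dim ones included, 577 were higher (3.17%) and 480 lower (2.64%) on D3.5. The median difference of the tested genes was 0.00064 on D3.5. In size, 95% of the differences lay under 1.38 on D3.5 and under 0.40 on D0.5, and 99% under 2.57 and 0.60. The brightest of the 10 genes called on D0.5, Rad21 of the cohesin ring, read 1942 and 844 there and differed by 0.05 on D3.5, and none of the 10 was called the same way on D3.5. The largest difference on D0.5 was 1.23, and 269 genes upward and 276 downward exceeded it on D3.5. At least 4-fold apart on D3.5 were 97 genes upward and 64 downward, against 0 on D0.5, and at least 16-fold apart were 14 and 6. With a pseudocount of 64 in place of 16 the counts were 227 higher and 187 lower. The upward genes thus reached further than the downward ones, although fewer passed 2-fold. That order of the 2-fold counts turns with the filter, as the counts over all 18193 genes show. The gene lists below, on cell types and pathways, held no tested member called on D0.5 except Igfbp5.

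**Figure D1:**
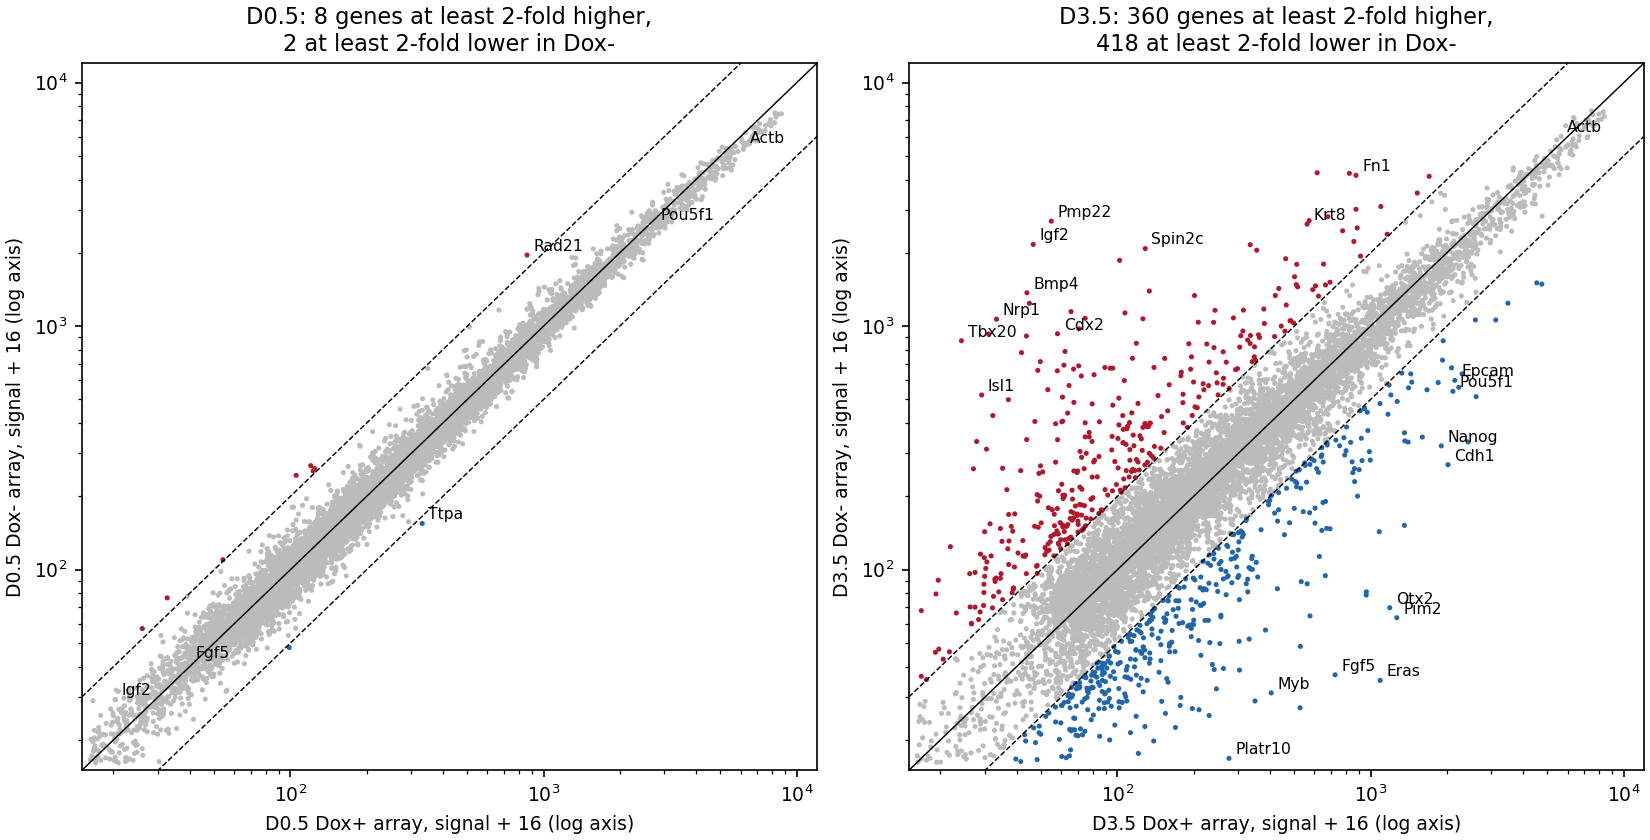
Signal + 16 of each tested gene on the Dox+ array (horizontal, log axis) and the Dox- array (vertical, log axis) of D0.5 and D3.5, 1 array an axis. Red points are at least 2-fold higher and blue points at least 2-fold lower in Dox-, and the dashed lines mark 2-fold. On D0.5 all but 10 genes lie between the lines, whereas on D3.5 there are 360 above and 418 below.

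Genes of both directions were near background on 1 of the arrays. The 360 higher genes had a median signal of 291 in Dox- and 59 in Dox+, and 215 of them had at least 50 on both arrays. The 418 lower genes had medians of 43.2 and 162, and 185 had at least 50 on both. The share of genes with a signal of at least 50 was 44.2% on the D3.5 Dox- array and 43.4% on the D3.5 Dox+ array, within 41.6% to 44.2% over all arrays. As a measure of RNA integrity, the 3' control probes of Actb gave 1.63 times the 5' signal in Dox- and 1.94 times in Dox+, while those of Gapdh gave 1.10 and 1.07. The part of RNA quality in the differences was not tested. Actb itself, a cytoskeletal actin gene, read 5994 and 5636 (difference 0.09).

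Tbx20 and Isl1, transcription factor genes of the heart field, lay among the genes furthest up. The signal of Tbx20 from D0.5 to D3.5 was 0.1, 10.4, 52.3 and 855 without doxycycline and 1, 0.7, 2.6 and 8.2 with it, and the D3.5 difference was 5.17. Isl1 read 7.7, 12.6, 80.7 and 506 without and 4.7, 1.2, 0.4 and 13.1 with doxycycline, a D3.5 difference of 4.16. Both were below 10 in undifferentiated cells, and both stayed near background throughout in Dox+. The next probe sets of the same genes gave 3.18 for Tbx20 and 2.80 for Isl1, and the dimmest one of Tbx20 gave 0.95. Hand2, a basic helix-loop-helix factor of heart and lateral plate, missed the signal filter because only 1 array exceeded 50. Its signal was 0.2, 1.2, 42.7 and 476 without and 6.8, 2.4, 0.8 and 3 with doxycycline, a D3.5 difference of 4.69. Its other 2 probe sets were at 5.1 or less on both D3.5 arrays and gave no measurement.

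The promoters of Tbx20, Isl1 and Hand2 are shown because these heart-field genes were higher together and because PKA acts on factors that bind TGACG, the core of the cyclic AMP response element. They are the 250 bases before the annotated start, from RefSeq on GRCm38.p6, 5' to 3' along the gene. Capitals mark TGACG, which reads CGTCA on the opposite strand. They also mark letters that GATA factors bind, AGATAA or likewise TGATAA, which read TTATCT or else TTATCA on the opposite strand.
Tbx20: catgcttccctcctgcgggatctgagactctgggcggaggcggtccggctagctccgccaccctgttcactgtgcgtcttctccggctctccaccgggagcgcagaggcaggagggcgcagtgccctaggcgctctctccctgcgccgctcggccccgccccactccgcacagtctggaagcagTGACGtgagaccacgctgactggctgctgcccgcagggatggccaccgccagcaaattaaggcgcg
Isl1: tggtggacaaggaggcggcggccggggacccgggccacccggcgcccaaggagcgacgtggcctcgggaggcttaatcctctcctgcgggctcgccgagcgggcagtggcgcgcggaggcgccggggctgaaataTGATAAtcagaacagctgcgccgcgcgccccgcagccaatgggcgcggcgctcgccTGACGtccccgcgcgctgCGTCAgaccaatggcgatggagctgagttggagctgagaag
Hand2: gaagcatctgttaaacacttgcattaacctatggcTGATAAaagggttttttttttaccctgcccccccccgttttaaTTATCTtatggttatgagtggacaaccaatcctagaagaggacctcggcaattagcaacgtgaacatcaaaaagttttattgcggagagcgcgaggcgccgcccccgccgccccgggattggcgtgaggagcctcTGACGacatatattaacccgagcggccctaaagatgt
The Tbx20 promoter lies at chr9:24774304-24774553 on the minus strand, that of Isl1 at chr13:116309689-116309938 on the minus strand and that of Hand2 at chr8:57320733-57320982 on the plus strand. Counted back from the start, TGACG lies at -66 to -62 in Tbx20, at -59 to -55 and, reversed, at -41 to -37 in Isl1, and at -37 to -33 in Hand2. The GATA-factor letters occur at -115 to -110 in Isl1, and at -215 to -210 and -172 to -167 in Hand2. Such a match describes letters only.

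The shares of promoters that hold these letters are given as a description, with no test. Of the tested genes 7170 matched a promoter of the table, among them 276 of the 360 higher and 321 of the 418 lower genes. TGACG occurred on either strand in 17.0% of higher, 19.3% of lower and 29.6% of all tested genes with a promoter, and in 17.9% of all 27025 promoters. The full element TGACGTCA, whose letters hold the core, occurred in 1.09%, 3.12%, 3.04% and 1.62%. The GATA-factor letters were in 9.78% of higher, 4.67% of lower, 7.78% of tested and 17.0% of all promoters. By list, TGACG was in 7 of 19 lateral plate and heart field promoters (36.8%), 4 of 17 of the BMP list, 3 of 19 of the primed epiblast list and 2 of 16 of the general pluripotency list. The GATA-factor letters were in 5, 0, 1 and 2 of the same lists, and the full element in 0, 0, 2 and 0. The T-box letters GGTGTGA were in 2.90%, 3.43%, 2.47% and 3.31% of the 4 sets in the same order, the octamer ATGCAAAT in 2.17%, 3.43%, 1.26% and 1.61%, and the LEF/TCF letters CTTTGAT in 1.45%, 2.49%, 2.23% and 3.23%. Median GC content was 62% for higher, 61.2% for lower, 60.8% for tested and 52% for all promoters.

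Of the lateral plate and heart field list, 7 of 10 tested genes were higher in Dox- and 1 was lower, with a median difference of 3.01. Over all 29 genes with a probe set 15 were higher and 1 lower, with a median of 1.04. Of the 10 tested genes 5 were below 50 in Dox+, so they passed the filter through other arrays. The gene furthest up after Tbx20 was Bmp4, which encodes a ligand that patterns posterior mesoderm, at 1355 in Dox- and 27.9 in Dox+ (difference 4.96). Tbx3, a T-box factor of both naive ES cells and heart, read 1061 and 58.6 (3.85). Snai2, a repressor of epithelial genes, read 413 and 16.2, and its D2.5 difference had been 0.07. Gata6, a zinc finger factor of heart and endoderm, and Pdgfra, a growth factor receptor gene of mesoderm, differed by less on D3.5 than on D2.5, by 2.23 after 3.78 and by 2.28 after 5.22. The single lower gene was Hopx, a homeodomain-only factor, at 30.8 and 112 (-1.45). Foxf1, a forkhead factor of splanchnic and extraembryonic mesoderm, was dim on every other array, at most 33.4, and read 728 in Dox- against 17.4 in Dox+. Tbx2 and Smarcd3, a chromatin remodelling subunit of early heart cells, were also dim elsewhere and read 97.1 and 117 in Dox-, with differences of 2.76 and 2.97.

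Genes of contracting heart muscle were mostly at background. Of 3 tested members, 0 were called either way (median 0.70), and of all 20 there were 4 higher and 1 lower (median 0.19). Tnnc1, the calcium-binding troponin subunit of slow and cardiac muscle, read 169.5 in Dox- and 13.6 in Dox+. The other 3 higher genes, Tnni1, Tnnt2 and Myl7, reached at most 61.7. Myh6, a cardiac myosin, was lower at 3.7 and 28.6, both below 50.

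The ligands Bmp4 and Bmp2 and the targets that BMP signals induce were higher in Dox- together. Of 16 tested genes of the BMP list 10 were higher and 1 lower, with a median difference of 1.72, and over all 25 genes 14 were higher and 1 lower (median 1.52). Bmp4 read 312 in undifferentiated cells, 51.1, 13.6, 120.1 and 1355 from D0.5 to D3.5 without doxycycline and 60.5, 19.7, 13.7 and 27.9 with it. Its signal was thus low in both arms on D1.5 and high again in Dox- alone. Bmp2 read 3.2, 77.6, 143 and 642 in Dox- and 5.7, 3.1, 4.9 and 32.5 in Dox+ over the same days. Among targets, the homeobox genes Msx1 and Msx2 read 671 against 54.3 and 639.7 against 41.9, with differences of 3.29 and 3.5. The inhibitors that BMP signalling induces against itself, Smad6 and the pseudoreceptor gene Bambi, differed by 3.40 and 3.38. Id1 and Id3, inhibitors of helix-loop-helix factors and direct BMP targets, differed by 1.13 and 1.91. Bmper, a secreted BMP-binding protein, read 391 and 44.8. Bmp5 and Bmp7, further ligands, were dim elsewhere and read 119.6 and 104 in Dox-. The single lower gene was Fst, which encodes the activin and BMP antagonist follistatin.

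Genes of the amnion and allantois showed the highest median of any list with more than 1 tested gene. Of 7 tested genes 6 were higher and 0 lower (median 3.09), and of all 19 there were 12 higher and 0 lower (median 1.76). The list shares Bmp4, Isl1, Bambi, Id1 and Id3 with those above. Tbx4, a T-box factor of the allantois and hindlimb, read at most 6.7 on the other 8 arrays and 487 in D3.5 Dox-, against 0.8 in Dox+. Its second probe set gave 1.73. Ahnak, which encodes a very large scaffold protein, read 1056 and 110.1 (3.09), and its difference is the median of the tested genes. Among dim members, Postn read 13.4 and 5.6 and Dlx5 12.3 and 6.8. Vcam1 read 3 and 7.6 and Gabrp 3.3 and 12.3. All of these were at background in both media.

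Of the trophoblast list, 4 of 5 tested genes were higher and 0 lower (median 1.79), and 8 of all 15 (median 1.62). The higher tested ones were Cdx2, Krt8, Krt18 and Tfap2c, all of which mesoderm, epithelia or germ cells also use. Plac1, a placenta-enriched gene, read at most 20.2 on the other 8 arrays and 750.1 in D3.5 Dox-. Elf5 and Tpbpa, which define trophoblast, read 3.2 and 12 in Dox- and 3.3 and 5 in Dox+, so they were at background in both. The 15 genes summed to a signal of 8335 in Dox- and 2499.7 in Dox+, and the part of such cells in the differences was not tested.

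Of the extraembryonic endoderm list, 8 of 12 tested genes were higher and 0 lower (median 1.2), and 9 of all 18 (median 0.93). The members furthest up were Pdgfra, the laminin gene Lama1 (80.3 and 10.1), the collagen gene Col4a1 (800.5 and 225) and Srgn, a proteoglycan gene (89 and 21.2). The adaptor gene Dab2 (112.6 and 42.5) and the endoderm factor Sox7 (31.2 and 3.7) were also higher, as was Cubn, an endocytic receptor of yolk sac endoderm, dim in both media (46.9 and 10.3). Apoe, an apolipoprotein, read 256 and 394. Secreted products of yolk sac endoderm were at background in both media: Afp, alpha-fetoprotein, read 5.1 and 3.6, Apoa1, another apolipoprotein, 8.4 and 3.2, and Ttr, transthyretin, 18.9 and 7.3. The list's 18 genes summed to 4800.5 and 2470.4, and the part of such cells in the differences was not tested.

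Vascular and blood precursor genes were higher in Dox-, and the median of the tested ones had its highest value on D1.5. Of 16 tested genes 12 were higher and 0 lower on D3.5, and 12 of the 16 were below 50 in Dox+. Their median difference was 2.04 on D1.5, then 1.92, then 1.41. Over the 34 genes with a probe set 15 were higher and 0 lower on D3.5 (median 0.81). Their median was 1.24 on D1.5 and 1.40 on D2.5, so with dim genes included the highest value fell on D2.5. Nrp1, the co-receptor of vascular endothelial growth factor and of semaphorins, read 1052 in Dox- and 17.3 in Dox+ (5.0), and its other 3 probe sets gave 4.46, 4.11 and 2.94. Kdr, the main receptor of that growth factor, differed by 3.75, Fli1, an ETS factor needed for blood vessels, by 2.5 and Ets1, of the same family, by 2.24. Runx1, the regulator of definitive blood formation, was dim elsewhere and read 127 in Dox- against 12 in Dox+. Genes of mature endothelium were dim in Dox- too, with Pecam1 at 21.9, Tek at 28.5 and Cdh5 at 25.5.

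**Figure D2:**
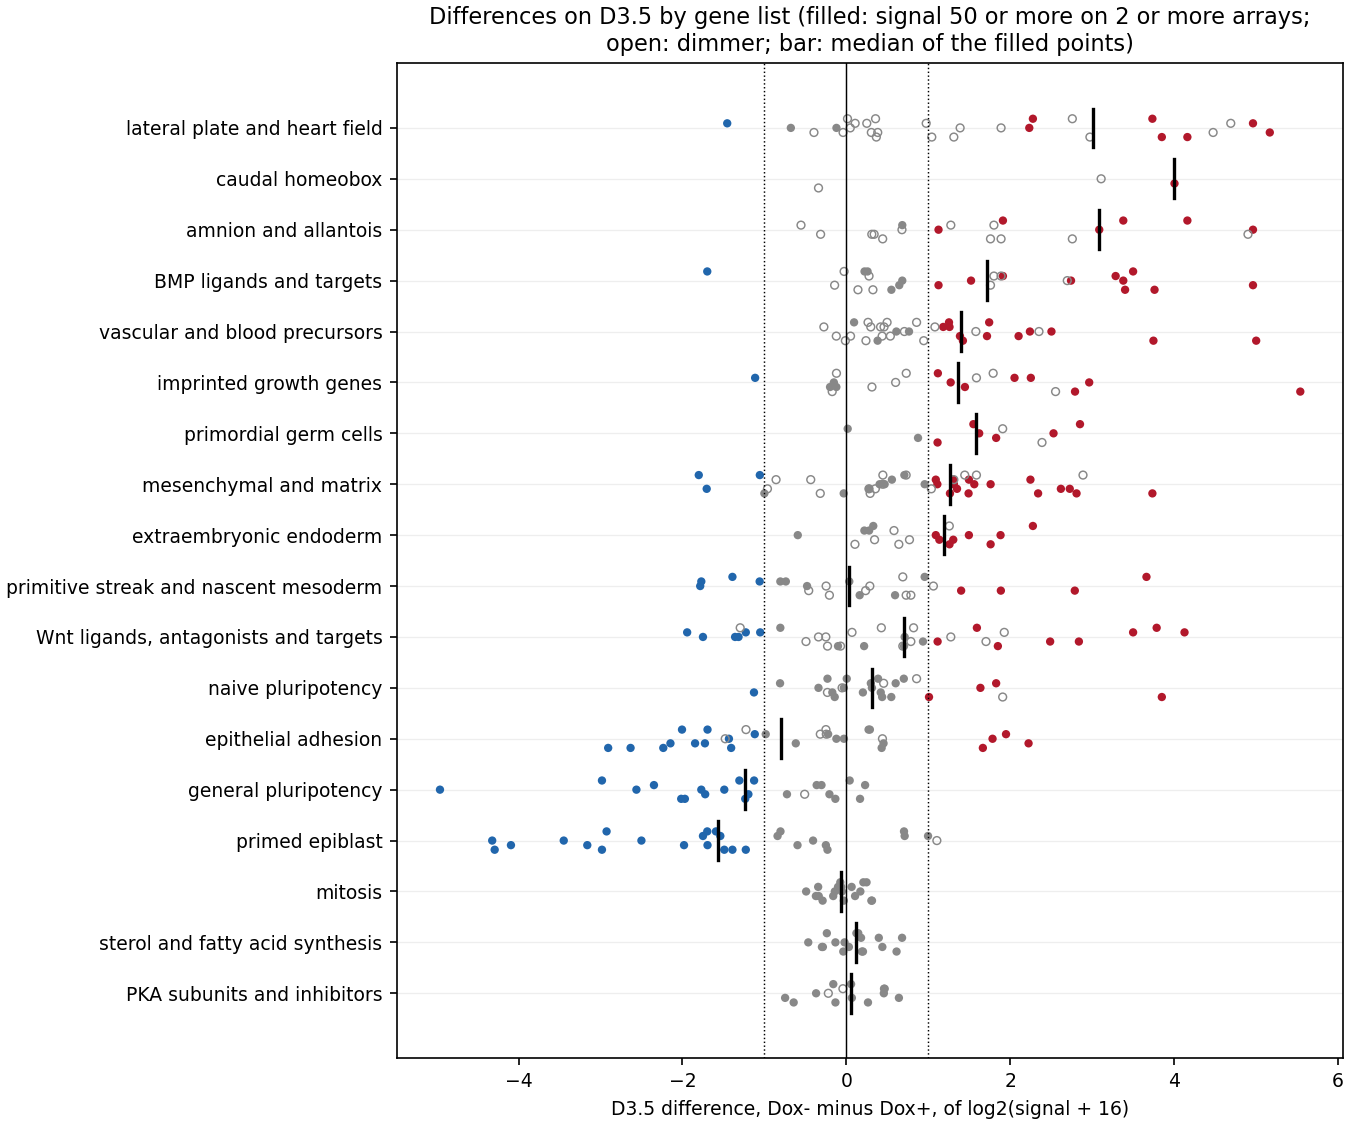
D3.5 differences, Dox- minus Dox+, of log2(signal + 16) (horizontal) for the genes of 18 lists (rows), 1 point a gene. Filled points are tested genes, coloured where at least 2-fold apart, open points are dimmer genes and bars are medians of the filled points. The bars run from -1.56 for primed epiblast to 3.09 for amnion and allantois, with a lone caudal homeobox gene at 4.0, while mitosis, sterol synthesis and PKA genes stay near 0.

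Hox genes, which set positions along the trunk, reached a signal of 50 on the D3.5 Dox- array and on no other. Of 33 with a probe set, 0 passed the filter, and 14 reached 50 on that array. The highest signal of any of the 33 on the other 8 arrays was 47.7. On D3.5 the medium without doxycycline gave the higher signal, by 2-fold or more, for 18 of the 33 and the lower for 0, with a median difference of 1.37, against 3.17% higher over all genes with a probe set. Higher genes came from all 4 clusters, with 3 of 9 in Hoxa, 6 of 9 in Hoxb, 4 of 7 in Hoxc and 5 of 8 in Hoxd. Hoxa9 read 422 against 5.1, Hoxb2 315 against 14.5, Hoxd9 307 against 4.6 and Hoxc8 222 against 1.8. Anterior genes such as Hoxb2 and Hoxd1 (300.2 and 13.2) and central or posterior ones such as Hoxc8, Hoxa9 and Hoxd9 thus appeared on the same array. Levels of different genes cannot be set against each other by probe signal. The caudal genes, which act upstream of trunk Hox genes, were high on the same array. Cdx2 read 5.1, 13.1, 225 and 915 without and 13.9, 11.2, 4.9 and 42 with doxycycline from D0.5 to D3.5 (4.0 on D3.5), and its second probe set gave 2.83. Cdx4 was dim elsewhere and read 167 against 5.2, and Cdx1 read 1.4 and 6. Of the 3 caudal genes 2 were thus higher and 0 lower (median 3.11).

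**Figure D3:**
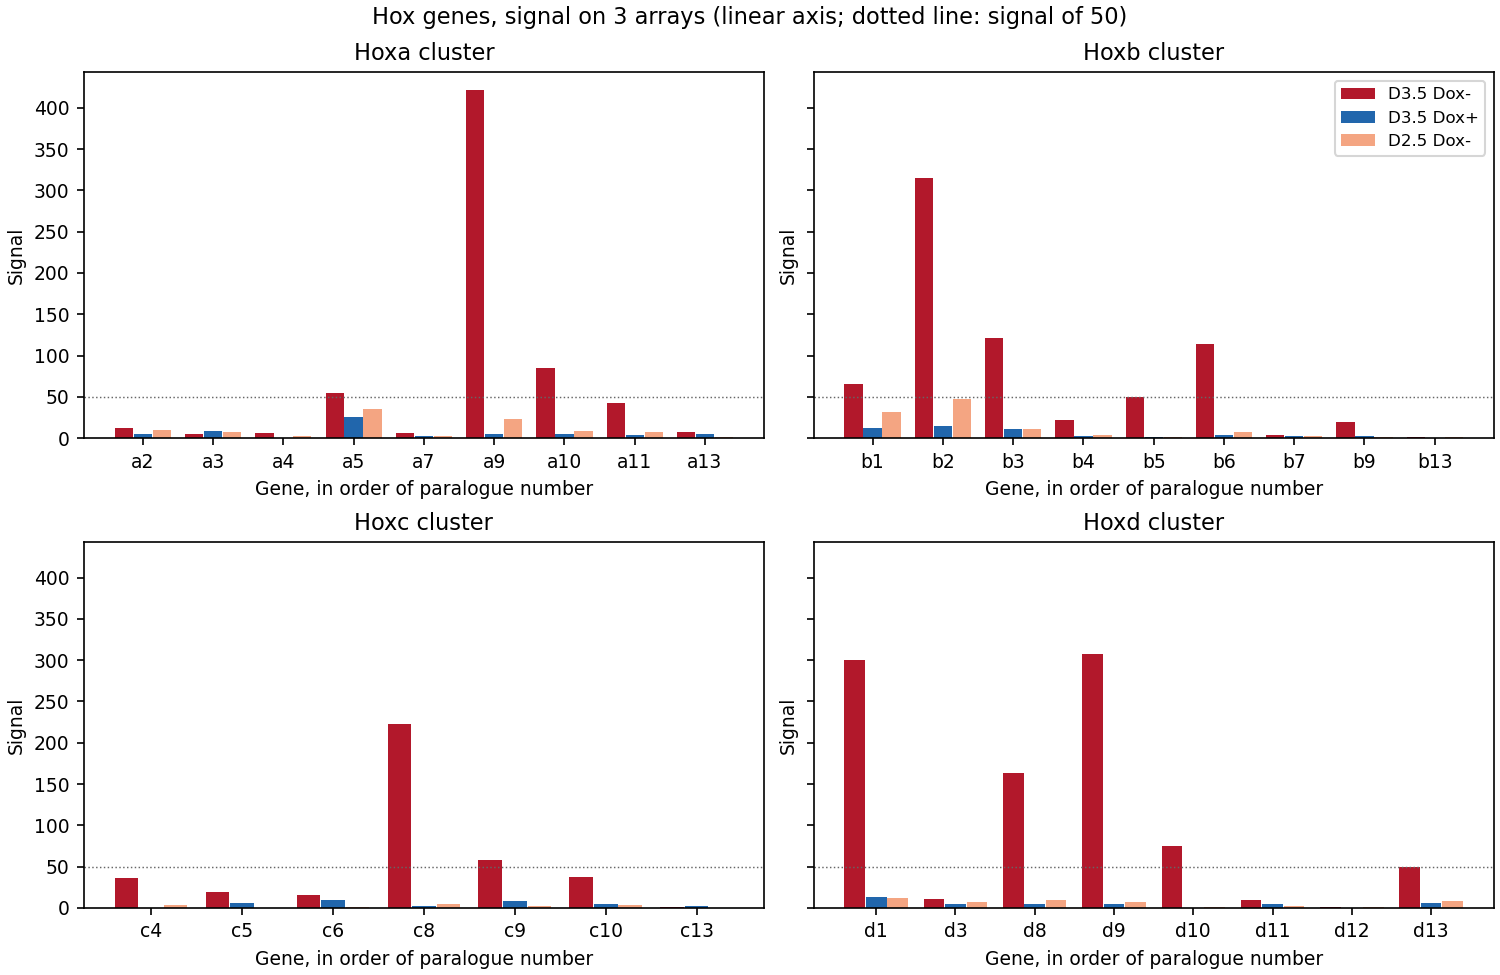
Signal (linear axis) of 33 Hox genes in order of paralogue number within each cluster, on the D3.5 Dox- array, the D3.5 Dox+ array and the D2.5 Dox- array. The dotted line marks a signal of 50, and only red bars, D3.5 Dox-, reach it.

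A wider set of genes exceeded 50 on this array alone. A signal of at least 50 on the D3.5 Dox- array and on none of the other 8 was found for 232 genes, of which 50 reached 100 and 15 reached 200. The undifferentiated cells had 109 such genes, 18 of them at 100 or more, and the other 7 arrays between 19 and 49, with at most 4 at 100 or more. By construction none of these genes was tested. The brightest were Plac1, Foxf1, Unc5c, a netrin receptor gene (623, at most 48.7 elsewhere), and Ackr3, a scavenging receptor of the chemokine CXCL12 (619, at most 46.8 elsewhere). They also included Capn6, a calpain family gene (299), and Airn, the noncoding RNA antisense to Igf2r (170.3).

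**Figure D4:**
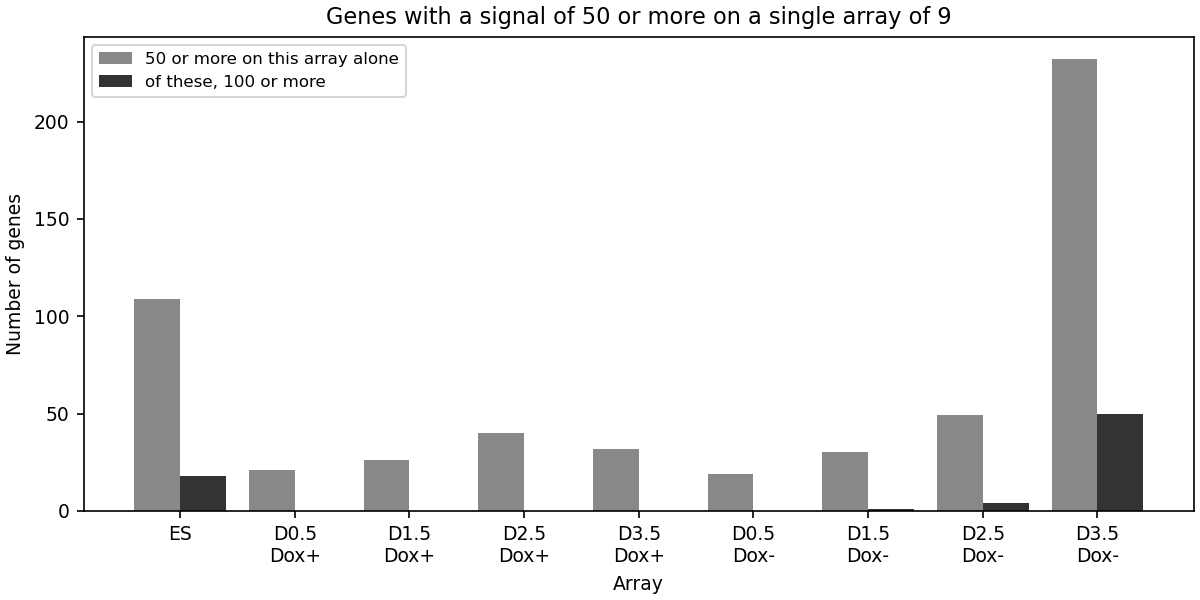
Number of genes (vertical) with a signal of at least 50 on 1 array of the 9 and on no other, by array, with those of at least 100 in dark. D3.5 Dox- has 232 and 50, and undifferentiated cells have 109 and 18.

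Igf2, a fetal growth factor gene expressed from the paternal allele, read 13.3, 252, 386 and 2151 without and 4.3, 10.3, 23.8 and 30.5 with doxycycline from D0.5 to D3.5, after 9 in undifferentiated cells. It had parted by D1.5 and was 5.54 apart on D3.5. A dim second probe set gave 1.43. Other imprinted growth genes were higher with it: 8 of 12 tested genes were higher and 1 lower (median 1.36), and 11 of all 20 higher and 1 lower (median 1.2). Cdkn1c, a cell cycle inhibitor, read 616 and 64.9, and Phlda2, a restrainer of placental growth, 4248 and 599. These 2 are expressed from the maternal allele, as is Igf2r, the receptor that removes Igf2, at 899.5 and 319. Peg3, Sgce, Slc38a4 and Ndn, which are expressed from the paternal allele, differed by 1.27, 2.25, 2.05 and 1.12. Genes of both parental origins were thus among the higher ones. Grb10, an adaptor that restrains insulin signals, was the lower one at 12.5 and 45.6. Meg3, a noncoding RNA of the Dlk1 domain, read 2400.3 and 2611 (-0.12), while Dlk1 itself was dim elsewhere and read 189.7 and 19. Of the IGF binding and receptor genes 3 of 10 tested were higher and 1 lower (median -0.27), with Igfbp4, a binding protein, at 661 and 73.2. The lower one, Igfbp5 (17.1 and 55), was also among the 10 genes called on D0.5, in the other direction. Its second probe set, dim in both media, read 48.2 and 18.7 (0.89), so its probe sets disagree.

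Primordial germ cell genes were higher as well. Of 8 tested genes 6 were higher and 0 lower (median 1.59), and 8 of all 10. Kitl and Kit, a ligand and its receptor, read 470.3 against 51.3 and 179 against 50.5. Ifitm1, a membrane protein gene also found in posterior mesoderm, read 2034 and 339. The specification genes Prdm14 and Tfap2c differed by 1.83 and 1.62. The dim genes Prdm1 (Blimp1) and Dppa3 (Stella) read 133 against 12.4 and 98.2 against 14.4. In undifferentiated cells Prdm14 and Tfap2c read 234 and 263, above their 81.4 and 162 in D3.5 Dox-. Ifitm1, Prdm1 and Dppa3 read less there than in D3.5 Dox-, at 757, 18.2 and 15.4. The part of germ cells in the differences was not tested. Of the later, mostly meiotic germline genes 1 of 14 tested was higher and 2 lower (median -0.28), with Sycp3, of the meiotic chromosome axis, at 78.5 and 647.

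Primitive streak genes no longer parted the arms one way on D3.5. The streak gene T (Tbxt) had no probe set of its own here and is not among them. Of 15 tested genes 4 were higher and 4 lower (median 0.04), after 13 higher and 1 lower on D2.5 (median 3.29). Over all tested genes 3.41% were higher and 4.45% lower on D2.5. Both arms differed between the days. In Dox-, 8 of the 15 were at least 2-fold lower on D3.5 than on D2.5 and 2 higher, where 2.19% and 2.89% of all tested genes were. In Dox+, 10 were at least 2-fold higher and 0 lower, where 1.32% and 0.769% of all tested genes were. The median changes from D2.5 to D3.5 were -1.03 in Dox- and 2.48 in Dox+. Eomes, a T-box factor of the streak, read 1808 and then 540.3 in Dox-, and 42.2 and then 911 in Dox+. Lhx1, a factor of the anterior streak, read 1083 and 215 in Dox- and 3.8 and 190.1 in Dox+. Nkx1-2, a homeobox gene of the caudal epiblast, and Cfc1, a Nodal co-receptor gene, were still higher in Dox-, at 771 against 46.1 and 424 against 47.6. Foxa2 and Gdf3, a forkhead factor of endoderm and a growth factor of the epiblast, were lower, at 11.5 against 78.6 and 62.9 against 253.

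Definitive endoderm genes split. Of 9 tested genes 4 were higher and 3 lower (median 0.77), and of all 18 there were 6 higher and 3 lower. Cxcr4, a chemokine receptor also present in mesoderm, read 244 and 11, and Krt19 424 and 98. Trh, which encodes thyrotropin-releasing hormone, was the furthest down at 48.6 and 561. Of the paraxial mesoderm list 2 of 5 tested genes were higher and 0 lower (median 0.13), and of all 18 also 2 and 0. These were the Notch targets Hey1 (326 and 42) and Nrarp (168 and 56).

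Among signalling genes, Wnt5a, a ligand of noncanonical Wnt signals in posterior tissue, read 7.1, 7.8, 368 and 1132 without and 6.7, 3.6, 0.6 and 49.6 with doxycycline, and was 4.13 apart on D3.5. The Wnt list split, with 8 of 20 tested genes higher and 6 lower (median 0.71). Higher were also the secreted agonist gene Rspo3 (2.49) and the inhibitors Dkk1 (2.84), Apcdd1 (3.79) and Nkd1 (1.85). Lower were the decoy receptor genes Sfrp1 (-1.31) and Sfrp2 (-1.94), the ligand Wnt8a (-1.75), the receptors Fzd2 (-1.36) and Fzd7 (-1.05) and the repressor Tcf7l1 (-1.23). In Dox+ 10 of the 20 were at least 2-fold higher than on D2.5 and 0 lower, and in Dox- 4 were higher and 3 lower. Over all tested genes these shares were 1.32% and 0.769% in Dox+ and 2.89% and 2.19% in Dox-.

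Of the Nodal and activin list 1 of 18 tested genes was higher and 5 lower (median 0.05). The ligand genes Nodal and Gdf3, the co-receptor gene Tdgf1, the feedback inhibitor Lefty1 and the antagonist Fst were lower, with Lefty1 at 261 and 829.5 and Nodal at 356 and 959.6. The higher gene was Cfc1. Of the FGF list 3 of 17 tested genes were higher and 3 lower (median -0.03). Fgfr2, the receptor gene, read 385 and 58.6, and the ligand Fgf3 187 and 32.2, while the ligands Fgf5, Fgf4 and Fgf8 were lower. Of the retinoic acid list 2 of 7 were higher and 0 lower (median 0.20), the degrading enzyme gene Cyp26a1 (1148 and 299) and the binding protein gene Crabp1 (175 and 32.4).

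Fgf5, a ligand that marks the primed epiblast, read 25.8, 755, 570.3 and 21 without doxycycline from D0.5 to D3.5 and 23.7, 419.6, 899 and 708 with it. On the Dox- arm it had thus come and gone, and the D3.5 difference was -4.29, with -2.16 by a dimmer probe set. Pim2, a serine-threonine kinase gene, behaved alike, at 262, 1680.2, 709 and 47.5 without and 202, 1276, 1528 and 1253 with doxycycline (-4.32). Of the primed epiblast list 17 of 26 tested genes were lower and 0 higher (median -1.56). At least 2-fold lower on D3.5 than on D2.5 were 12 of the 26 in Dox- and 4 in Dox+. Over all tested genes these shares were 2.19% and 0.769%. Otx2, a homeobox factor of epiblast and anterior neural tissue, read 53.8 and 1175 on D3.5 (-4.09). Pou3f1 (Oct6), a POU factor of the same tissues, read 106 in Dox- on D2.5 already and 32.4 on D3.5, against 512 in Dox+. The amino acid transporter gene Slc7a3 read 136 and 1344.

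The promoters of Fgf5 and Pim2 are shown as those of primed epiblast genes furthest down. Capitals mark the T-box letters GGTGTGA, the octamer ATGCAAAT that POU factors such as Pou5f1 bind, and the LEF/TCF letters CTTTGAT, each on either strand.
Fgf5: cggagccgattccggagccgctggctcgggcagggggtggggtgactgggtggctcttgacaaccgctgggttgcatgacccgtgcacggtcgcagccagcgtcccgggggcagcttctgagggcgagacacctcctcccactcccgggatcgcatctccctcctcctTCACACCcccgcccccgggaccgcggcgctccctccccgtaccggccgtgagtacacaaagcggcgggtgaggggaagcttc
Pim2: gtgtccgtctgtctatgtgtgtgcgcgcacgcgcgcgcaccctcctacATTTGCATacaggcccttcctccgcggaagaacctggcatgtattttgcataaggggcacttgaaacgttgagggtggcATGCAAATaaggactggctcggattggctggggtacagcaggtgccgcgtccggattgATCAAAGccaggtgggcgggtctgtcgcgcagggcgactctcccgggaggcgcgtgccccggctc
They lie at chr5:98253934-98254183 and chrX:7878056-7878305 of GRCm38.p6, both on the plus strand. Fgf5 holds the T-box letters, reversed, at -82 to -76. Pim2 holds the octamer at -123 to -116 and, reversed, at -202 to -195, and the LEF/TCF letters, reversed, at -65 to -59.

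General pluripotency genes were lower in Dox-: 13 of 21 tested genes were lower and 0 higher (median -1.23). In Dox- 11 of the 21 were at least 2-fold lower than on D2.5 and in Dox+ 4, against 2.19% and 0.769% of all tested genes. Eras, a Ras family gene of ES cells, was the gene furthest down of all, at 1141, 1157, 522 and 19 without and 1145, 923, 1141 and 1076 with doxycycline from D0.5 to D3.5 (-4.96). Pou5f1 (Oct4), the POU factor of pluripotent cells, read 524 and 2099 on D3.5, the homeobox gene Nanog 306 and 1887, and Sox2 265 and 909. All 3 were thus still detected in Dox-, and the labelled cell type showed them too: undifferentiated cells read 2263, 1629.6 and 2582. The difference of Sox2 had been -2.35 on D2.5, that of Pou5f1 -0.23 and that of Nanog 0.67, so Sox2 was called a day before the other 2 core factors. Not every pluripotency gene followed: Sall4 and Lin28a read 2148 against 1829 and 613 against 544.

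Naive pluripotency genes were mostly dim in both arms, and 4 of 21 tested genes were higher and 1 lower in Dox- (median 0.31). Of the 21, 16 were below 50 in Dox+ and 11 in Dox-. The higher ones were Tbx3, Prdm14, Klf4, a zinc finger factor (139.6 and 34), and Socs3, a feedback inhibitor of the STAT3 pathway. Zfp42, Esrrb and Klf2, all markers of the naive state, read 63.1, 11.1 and 31 in Dox- and 71.2, 4.7 and 19 in Dox+. Of the neural ectoderm list 5 of 11 tested genes were lower and 0 higher (median -0.71). These were Otx2, Pou3f1, Zic2, Sox2 and Sox1, of which all but Sox1 are also epiblast or pluripotency genes. Sox1 and Pax6, which define neural tissue, read 0.3 against 25.5 and 3.1 against 15.3, dim in both media. Of the DNA methylation enzymes 1 of 10 was higher and 1 lower (median -0.13), the lower one being the de novo methyltransferase gene Dnmt3b at 1489.9 and 4518.

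**Figure D5:**
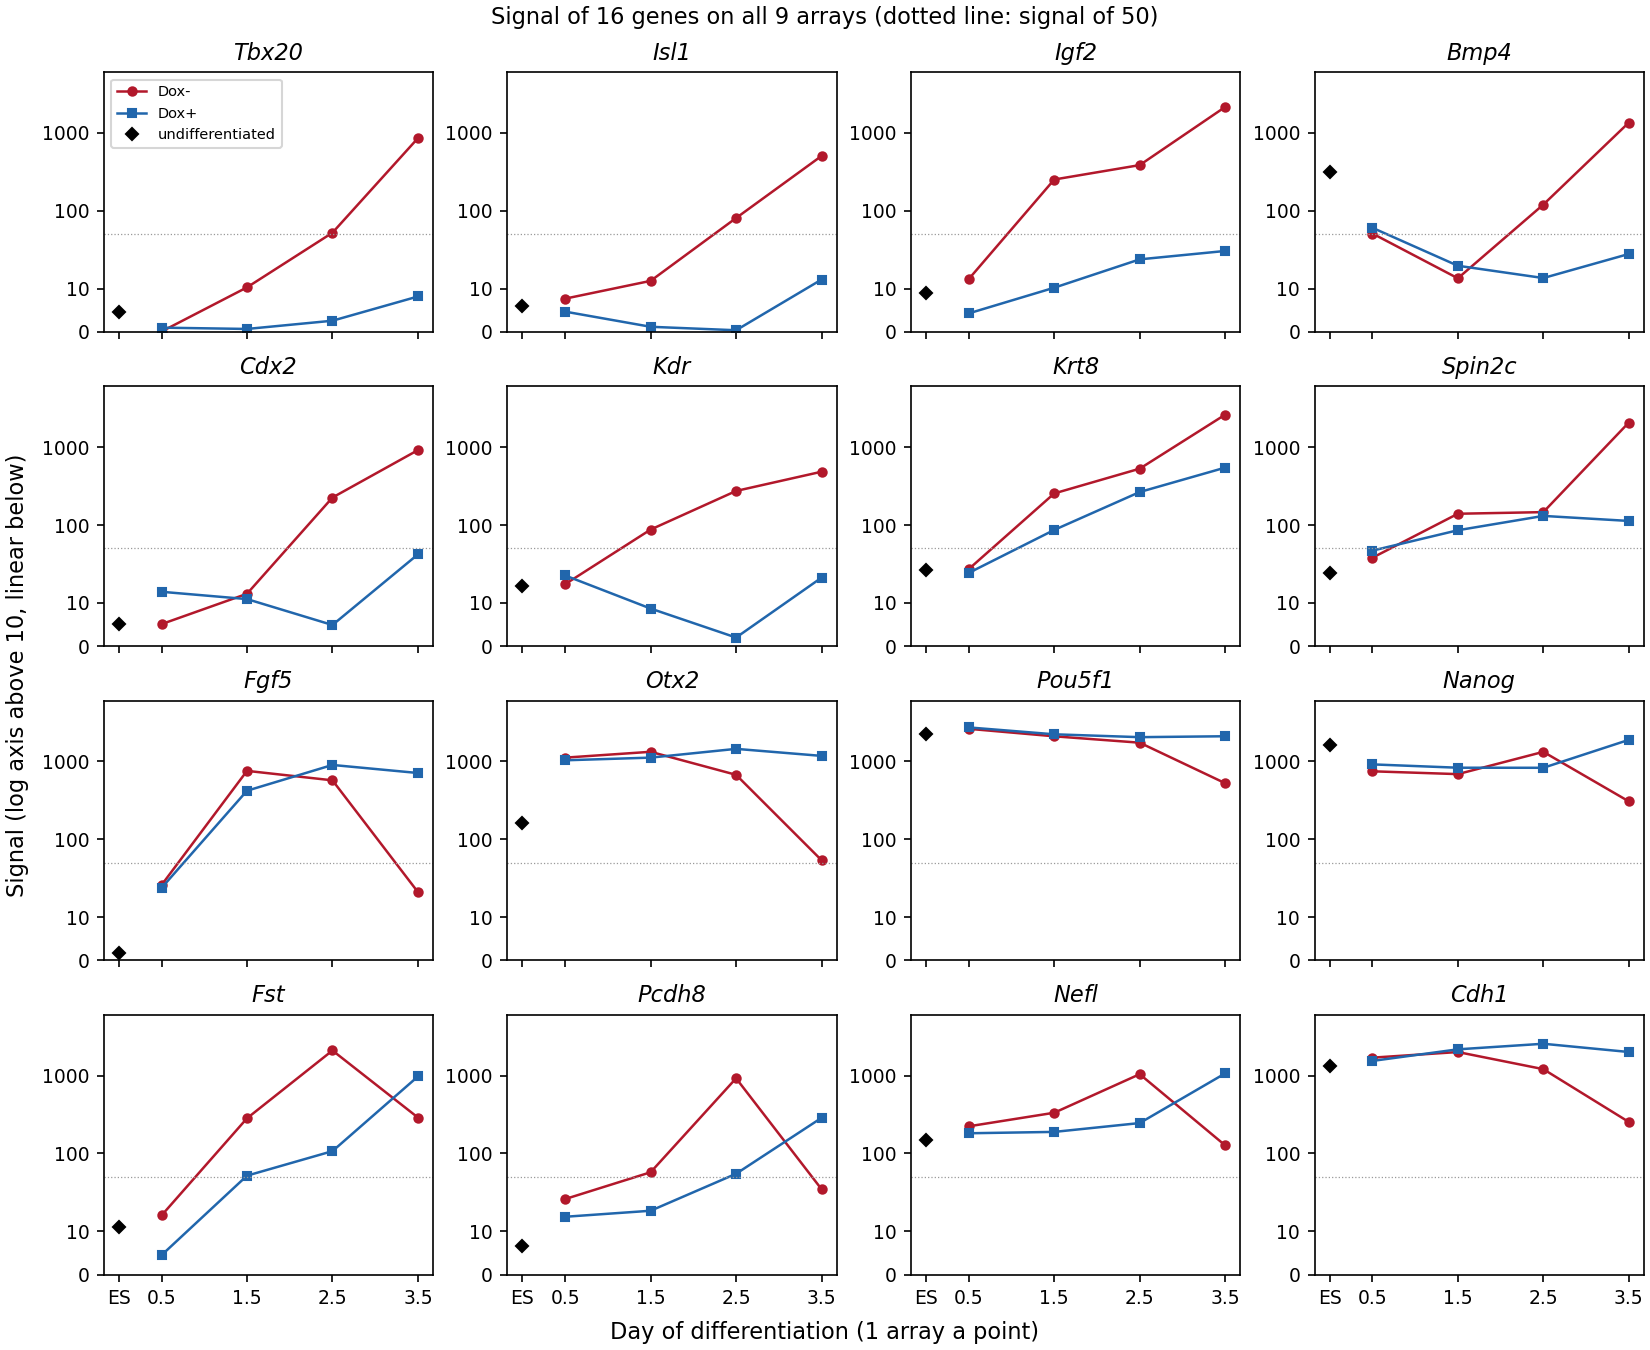
Signal (log axis above 10, linear below) of 16 genes on all 9 arrays by day of differentiation, with undifferentiated cells (ES) at the left and 1 array a point. Tbx20, Igf2 and Bmp4 reach, on the Dox- arm, 855, 2151 and 1355, Fgf5 and Otx2 end there at 21 and 53.8, and Fst, Pcdh8 and Nefl cross between D2.5 and D3.5.

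Of 24 tested epithelial adhesion genes 11 were lower in Dox-, E-cadherin among them, 4 were higher and 9 were within 2-fold (median -0.80). Those within 2-fold included the junction genes Tjp1 (-0.03), Pkp2 (-0.12) and Ctnnd1 (0.27). Cdh1, E-cadherin, read 1698, 2004, 1208 and 254 without and 1542, 2171, 2560.1 and 2007 with doxycycline (-2.91 on D3.5). The polarity gene Crb3 read 22.9 and 225, the claudin gene Cldn7 131 and 676, and Esrp1, a splicing regulator of epithelia, 129 and 626. The 4 higher genes were the simple-epithelial keratins Krt8, Krt18 and Krt19 and the desmosomal plakin Dsp. Krt8 read 2609 and 545 (2.23), and its other 2 probe sets gave 2.33 and 2.11. Krt18, its partner in filaments, read 3004 and 859.8 (1.79), Krt19 1.95 and Dsp 1.67.

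Of the mesenchymal and matrix list 16 of 27 tested genes were higher and 3 lower (median 1.27), and of all 42 there were 21 and 3 (median 1.00). In Dox- 11 of the 27 were at least 2-fold higher than on D2.5 and 0 lower, against 2.89% and 2.19% of all tested genes. Snai2 and Zeb1, repressors of E-cadherin, differed by 3.74 and 2.62. Zeb1 had read 209 in undifferentiated cells. From D0.5 to D3.5 it read 198, 25.6, 86.2 and 239 without and 193, 87.9, 23.9 and 25.5 with doxycycline. Vcan, a matrix proteoglycan, read 656 and 79.8, and Cdh11, a mesenchymal cadherin, 1319.9 and 186. Fn1, fibronectin, read 4145 and 859.7. The lower genes were Ccn2, a matricellular target of the Hippo pathway (175 and 648), the proteoglycan gene Dcn and the collagen gene Col18a1. Of the fibroblast and smooth muscle list 4 of 6 tested genes were higher and 1 lower (median 1.31), and its 15 genes summed to 3185 in Dox- and 1282 in Dox+. Pdgfrb, a receptor gene of mural cells, read 495 and 44.7, and Acta2, smooth muscle actin, 905.5 and 345. The fibrillar collagen genes Col1a1 (157 and 7.3), Col1a2 (137 and 47.7) and Col3a1 (29.4 and 6.1) were higher too. Lum and Fap, of mature fibroblasts, and Myh11, of contractile smooth muscle, read 5.3, 1.6 and 4.3 in Dox-, at background, and the part of such cells in the differences was not tested.

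Of the guidance receptors and ligands 6 of 24 tested genes were higher and 3 lower (median 0.55). Nrp2, the second neuropilin, read 608 and 56, and Sema3c, a secreted semaphorin that binds neuropilins, went the other way at 9.7 and 139. Sema3c and Nrp2 thus had opposite differences, while Sema3a, a dim semaphorin gene of the same list, read 39.4 and 15.8 (0.80). The dim ephrin genes Efna1 and Efnb3 read 156 against 20.5 and 198 against 33.6.

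Prkaca, the gene of PKA's catalytic subunit, read 390.2 and 618 (-0.64), and a dim second probe set gave 0.20. It does not check the labels, since it is not known whether these probes detect the introduced kinase. Of 12 tested genes of PKA subunits, inhibitors and anchoring proteins 0 were called (median 0.06), with Prkacb at 0.64 and the inhibitor Pkia at -0.75. At the shares of all tested genes, 4.13% higher and 4.80% lower, a list of this size would hold few calls. Of the cyclic AMP responsive genes 2 of 10 were higher and 1 lower (median -0.10): Fos read 180 and 45, Cited2 1159.8 and 363, and Egr1 211 and 495.

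Genes of cell division, sterol synthesis and the lysosome were within 2-fold. No tested gene was called among 19 of mitosis (median -0.06), 20 of DNA replication (-0.22), 17 of sterol and fatty acid synthesis (0.12), 15 of the lysosome (-0.06) and 9 ubiquitous controls (-0.01). Over all tested genes 4.13% were higher and 4.80% lower, so lists this small would hold few calls at that share. Of the cyclins and CDK inhibitors 2 of 14 were higher and 1 lower (median 0.09): Cdkn1c and the cyclin gene Ccnd2 (829 and 209) against Ccne1 (317 and 818). Of the p53 and stress genes 0 of 16 were higher and 2 lower (median -0.04), and of the interferon and MHC genes 2 of 9 were higher and 1 lower (median close to 0). Glycolysis and hypoxia genes gave 5 of 23 higher and 1 lower (median 0.18). The collagen hydroxylase genes P4ha1 and P4ha2 were among the higher ones (differences 1.51 and 2.00), and Pdk1, a kinase that restrains entry into the citric acid cycle, was the lower one (-1.04).

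Several genes furthest up belong to none of these lists. Pmp22, peripheral myelin protein, had the largest difference of all tested genes, with 9.3, 18.5, 150.1 and 2683 from D0.5 to D3.5 in Dox- and 7, 19, 16.9 and 38.8 in Dox+ (5.62 on D3.5). Rgs5, a regulator of G protein signals known from pericytes, read 912 and 15, and its other 3 probe sets gave 3.95, 3.39 and 1.91. Prdm6, a repressor of smooth muscle precursors, read 895 and 27.7. The growth factor gene Tgfb2 read 763 and 25.8, and the ankyrin repeat gene Asb4 1847 and 86. Furthest down beside Eras, Pim2, Fgf5 and Otx2 was Slc27a2, a fatty acid transporter gene, at 11.1 and 511 (-4.28). Platr10, a noncoding RNA of pluripotent cells, read 0.8 and 259.9, the transcription factor gene Myb 15.2 and 389, the zinc finger gene Zic5 62.7 and 945, and Abcc4, a transporter that exports cyclic AMP, 65.1 and 946.

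Fewer than 1 in 2 of the D3.5 genes had been at least 2-fold apart the same way on an earlier day. Of the 360 higher genes 155 (43.1%) were at least 2-fold higher on D2.5 as well, which is 52.2% of the 297 genes higher on that day, and 44 (12.2%) on D1.5. Of the 418 lower genes 183 (43.8%) were lower on D2.5, or 47.2% of that day's 388, and 11 (2.63%) on D1.5. None of either set was called the same way on D0.5. The median D2.5 difference was 0.86 for the higher and -0.87 for the lower genes, so many lay short of 2-fold rather than at 0. A difference of under 0.5 in size on D2.5 was found for 114 of the higher and 99 of the lower genes. In Dox-, 184 of the 360 higher genes read at least 2-fold more on D3.5 than on D2.5 and 4 at least 2-fold less. In Dox+, 49 of the 360 read at least 2-fold more and 5 less, and 141 differed 2-fold between the days in neither arm. Of the 418 lower genes 141 read at least 2-fold less than on D2.5 in Dox- and 0 more, while in Dox+ 17 read less and 15 more, and 267 differed 2-fold in neither arm. These counts share the D3.5 arrays with the rule that picked the genes and only describe in which arm the signal differed between the days.

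Among tested genes with a difference of under 0.5 on D2.5, Spin2c, a spindlin family gene, was the furthest up on D3.5. It read 38, 139.5, 146 and 2066 without and 46.9, 85.7, 131 and 113 with doxycycline, and its difference went from 0.14 on D2.5 to 4.01. After it and Snai2 came Magi3, a scaffold of cell junctions (722 and 98.7), Sgms1, a sphingomyelin synthase (1022 and 193), and Vegfc, a lymphatic growth factor (458 and 79.9). Amhr2, the receptor of anti-Müllerian hormone, 6330403K07Rik, the Polycomb gene Pcgf5, the annexin gene Anxa2 and the G protein subunit gene Gnb4 followed, with differences from 2.21 to 2.00. Downward the largest was Deptor, an inhibitor of mTOR, at 226, 270, 280.1 and 40.5 without and 213, 294, 335 and 369 with doxycycline (-2.77 on D3.5). Socs2, a suppressor of cytokine signals, read 318 and 1391, and Gldc, the glycine decarboxylase of naive and primed cells, 173 and 633. Dcxr, Zic2, Pou5f1, Jakmip1, Mapkapk3 and Gpc4 also belonged here, from -2.22 for Dcxr to -1.77 for Gpc4. Marcks gave -1.85 by its brightest probe set but -0.15, 0.01 and 0.32 by the next 3, so its probe sets disagree.

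A few genes lay on opposite sides on D2.5 and D3.5. Higher in Dox- on D2.5 and lower on D3.5 were 13 genes, and lower on D2.5 and higher on D3.5 were 5. Fst read 16, 283, 2098 and 289 without and 4.5, 51.9, 107 and 973 with doxycycline from D0.5 to D3.5, so the Dox+ value of D3.5 lay between the Dox- values of D1.5 and D2.5. Pcdh8, a protocadherin of streak and paraxial mesoderm, read 26, 57.4, 922 and 34.8 without and 15.4, 18.4, 54.9 and 287 with doxycycline. Nefl, a neurofilament gene, read 223, 333, 1042 and 127 without and 182, 189, 246 and 1066 with it. In all 3 the Dox- arm was highest on D2.5 and the Dox+ arm on D3.5. Among the 5, Gadd45g, a growth arrest gene, read 337, 146, 32.5 and 153 in Dox- and 331, 162, 90 and 21.2 in Dox+, lowest on D2.5 in the former and on D3.5 in the latter. Ier3, an early response gene, read 141, 101, 38.4 and 261 in Dox- and 102, 205, 269 and 64.6 in Dox+.

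Other probe sets of the same genes give a technical check. Of the 778 called genes, 493 had a second probe set, which had the same sign for 441 and was also at least 2-fold apart the same way for 212. It was of the opposite sign by at least 0.5 for 4 genes and by 2-fold for 0. Second probe sets are dimmer by definition, and probe sets of 1 gene on the same arrays are not replicates.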

How the data were processed

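RNA of mouse ES cells was hybridised to Affymetrix arrays, 1 array for each day and medium. The deposited values are probe set intensities that the authors made with GCOS, per the submitters' processing notes, and each array was scaled to a common average, as the labels and values show. Its version is not given in these sources. No scanner files were used here. Of 45101 probe sets 34945 carry 1 gene symbol in the platform annotation, 932 carry several and 9224 are unnamed here. Symbols were updated by gene ID for 34741. The brightest single-symbol probe set over the 9 arrays stood for each of 18193 genes, 9010 of which have more than 1. A gene was tested if its signal reached 50 on 2 arrays. Differences are log2(signal + 16), Dox- minus Dox+. The number of arrays limits the precision, and with 1 array a group no test was possible. Counting was checked on copies of the D0.5 Dox+ array with known differences put in and no noise added. This checks the arithmetic only. Python 3.11.15, numpy 2.4.6, pandas 2.3.3 and matplotlib 3.10.9 were used. Promoters came from a RefSeq table of GRCm38.p6.

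The comparison, its marker genes and the 40 gene lists were chosen with earlier results of these data known. Genes are named if they were among the 20 furthest each way, the 4 tested or 4 dim members of a list furthest apart, the 10 each way with a D2.5 difference under 0.5, the 8 each way that had parted the opposite way on D2.5, or those 2-fold apart on D0.5. Always named were the markers and Prkaca, Pou5f1, Sox2, Nanog and Actb. The following were named outside this rule, after their values were seen: Ackr3, Afp, Airn, Apoa1, Apoe, Bmper, Capn6, Ccn2, Col18a1, Col1a2, Ctnnd1, Dab2, Dlx5, Dsp, Elf5, Eomes, Esrp1, Esrrb, Fap, Fgf8, Fn1, Fzd2, Fzd7, Gabrp, Grb10, Hopx, Hoxd1, Id1, Id3, Kit, Klf2, Lhx1, Lin28a, Lum, Meg3, Msx1, Myh11, Myh6, Ndn, Nkd1, Nodal, Pdk1, Peg3, Pkp2, Postn, Rspo3, Sall4, Sfrp1, Sfrp2, Slc38a4, Socs3, Sox1, Sox7, Tcf7l1, Tdgf1, Tjp1, Tpbpa, Vcam1 and Zfp42.

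Alternatives were the pseudocount, the signal filter, the probe set, the fold and the array scaling.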

Additional observations from a re-analysis of the deposited data

Results flagged for a closer look

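13 named genes were at least 2-fold apart in opposite directions on D2.5 and D3.5, each day resting on 1 array a medium. The difference between the days was not tested. Lower in Dox- on D3.5 after being higher on D2.5 were Nefl (log2 difference -2.92, after 2.01 on D2.5), Pcdh8 (-2.57, after 3.73), Foxa2 (-1.78, after 1.70), Wnt8a (-1.75, after 1.86), Tgfbr3 (-1.70, after 2.44), Fst (-1.70, after 4.10), Epha1 (-1.59, after 1.73) and Ntn1 (-1.45, after 2.13). Several are known from the streak, its derivatives or the signals around it: Foxa2 is a factor of endoderm and axial mesoderm, Wnt8a a Wnt ligand, Tgfbr3 a co-receptor of TGF-beta ligands, Epha1 an ephrin receptor and Ntn1 a guidance ligand. Higher in Dox- on D3.5 after being lower on D2.5 were Gadd45g (2.18, after -1.13), Prph (2.10, after -1.37), Ppp1r3c (2.01, after -1.90), Ier3 (1.78, after -2.39) and Cgnl1 (1.51, after -1.69). By their second brightest probe sets Nefl (-2.08), Pcdh8 (-1.85) and Fst (-2.11) were also 2-fold apart on D3.5. Those of the other genes that have one were dim and not 2-fold apart: Ntn1 gave 0.59, of the opposite sign, Tgfbr3 -0.16, Epha1 -0.50, Prph 0.23, Ppp1r3c 0.42 and Cgnl1 0.21. Foxa2, Wnt8a, Gadd45g and Ier3 have 1 probe set.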

How the results depend on the processing

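No named gene called at 2-fold on D3.5 turned its sign under the mean over probe sets or quantile scaling. A pseudocount cannot turn a sign, and median centring shifts all genes alike by -0.08. Those runs therefore could not turn a called gene. The second brightest probe set was not part of these runs for genes. By it, 104 of the 115 called named genes that have one kept their sign, and 3 were of the opposite sign by at least 0.5. The balance of higher and lower calls turned with the setting. Against 360 genes higher and 418 lower in Dox- on D3.5 and 10 apart on D0.5, a pseudocount of 64 gave 227, 187 and 1, and a pseudocount of 1 gave 77 on D0.5. Without the filter 577 were higher, 480 lower and 20 apart on D0.5. With a signal of 100 on 2 arrays 235 were higher, 314 lower and 6 apart on D0.5. With 50 on both D3.5 arrays 215 were higher, 185 lower and 5 apart on D0.5. The mean over probe sets gave 271 lower and 2 on D0.5, and the second brightest probe set, in 5765 genes, 164 higher and 122 lower. At 1.5-fold the counts were 838, 923 and 98, and at 4-fold 97, 64 and 0. All remaining alternatives for these counts lay within 1.5 times. Median centring moved the median of all genes by -0.08 and gave 326 higher and 469 lower, and quantile scaling gave 343 and 456. The share of calls that were higher was 46.3%. It was 54.8% with a pseudocount of 64, 54.6% without the filter, 55.0% with 50 on 1 D3.5 array (478 and 391), 53.8% with 50 on both and 57.3% by the second brightest probe set. Neither scaling moved any of 39 list medians or 298 named genes by more than the SD of the D0.5 differences (0.20), whereas a pseudocount of 64 moved 14 medians and 216 genes by more, a pseudocount of 1 moved 10 and 196, the mean over probe sets 11 and 132, and dropping the filter 13 medians. The filter affects only which genes are tested, not a named gene's value, so it was not run for genes. No paired analysis was possible because each group has 1 array. Signals near background limit every difference of dim genes.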
